A study of Homo sapiens with 6 samples.

Results

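Ribosome biogenesis in the nucleolus was followed through 35 genes, fixed by name, out of 62709 genes in the deposited table of HepG2.2.15 cells. All 35 names were found, each once. They encode abundant nucleolar scaffold proteins, the proteins of the small nucleolar RNPs (snoRNPs), assembly factors of the small (40S) and large (60S) ribosomal subunits, and RNA polymerase I with its factors. HepG2.2.15, a subline of the hepatoma line HepG2, carries hepatitis B virus genomes and is kept under G418 selection. For 3 days the cells were kept with YQSHJD, a freeze-dried herbal decoction (Yinqi Sanhuang Jiedu Decoction) making up 10% of the medium, or with a control, and 3 libraries of polyadenylated RNA were made from each group. For the control, the treatment label reads physiological saline and the protocol names PBS. Cells of both groups are labelled wild type and come from 1 line, and nothing in the labels ties the replicates to different cultures. The p-values therefore cover only the variation among these 6 libraries, which may be technical.

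RNA polymerase I transcribes the precursor of the large ribosomal RNAs from ribosomal DNA repeats in the nucleolus, with UBTF shaping the active repeats and RRN3 recruiting the polymerase. Box C/D snoRNPs methylate the precursor and box H/ACA snoRNPs convert uridines in it to pseudouridine, while processomes cut it and fold it onto ribosomal proteins. The output of this pathway limits protein synthesis and growth, and the transcription factor MYC, which binds E-box sequences with its partner MAX, is a well-known activator of many of its genes. None of these libraries measures ribosomal RNA made by RNA polymerase I. The values are mRNA levels of the proteins only.

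RefSeq promoter windows of GRCh38.p14, reaching from 250 bases before to 50 bases after a gene's start, were given for 29 of the 35 genes, in 38 windows. The palindrome CACGTG, the E-box form preferred by MYC and MAX and also bound by other factors such as USF1, stood in a window of 15 of these 29 genes (51.7%). Of all 27303 genes with windows 8.78% held it, and of 8116 genes tested here 12.9% did. By window, the shares were 39.5% of 38 and 7.26% of 35114. Because the genes carry this sequence more often than promoters at large, the sites are shown here with 10 bases on each side where the window allows, on the gene's own strand, with CACGTG in capitals.
WDR43 (chr2:28894660-28894685, +): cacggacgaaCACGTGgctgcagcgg
GNL3 (chr3:52686028-52686053, +): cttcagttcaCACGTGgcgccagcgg
LYAR (chr4:4290070-4290095, -): gcggcgagtcCACGTGctccccgcgg
DDX21 (chr10:68956606-68956631, +): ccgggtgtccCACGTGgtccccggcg
NOP10, distal (chr15:34343291-34343316, -): agggacactcCACGTGttttagcctg
NOP10, proximal (chr15:34343132-34343157, -): aattgacgaaCACGTGacgcggtcgg
RRP9 (chr3:51941894-51941919, -): gttcagctgcCACGTGagttctgcgg
NOP14 (chr4:2963376-2963401, -): cgcggcccggCACGTGtcttagggta
GAR1 (chr4:109815783-109815808, +): gccagaggggCACGTGgcgccggtga
BYSL (chr6:41921517-41921542, +): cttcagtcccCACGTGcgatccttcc
NAT10 (chr11:34105604-34105629, +): tgcgcttgcgCACGTGctgtctacca
UTP20 (chr12:101280085-101280110, +): tttttccgtcCACGTGacccactcag
UTP4 (chr16:69132623-69132648, +): agcgcgcgcgCACGTGgggccggggc
FBL (chr19:39846358-39846383, -): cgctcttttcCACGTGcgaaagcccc
PES1 (chr22:30591882-30591907, -): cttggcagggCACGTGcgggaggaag
NOP2 (chr12:6568242-6568266, -): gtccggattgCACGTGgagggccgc

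Most of these sites lay close to the start of transcription. The distal site of NOP10 began 170 bases before the start and that of LYAR 64 bases before it, and every other site listed began between 31 bases before (DDX21) and 36 bases after it (NOP2). The first 5 genes listed, with 6 sites, are those that were higher with YQSHJD in the test described below. Of the genes with a window, 5 of 12 that were higher held CACGTG, and so did 9 of 14 that were not called and 0 of 1 that was lower. The ETS-type sequence CCGGAAGT was found in 8 of the 29 genes (27.6%, against 10.9% of tested genes), and CCAAT in 12 (41.4%, against 43.2%). All 3 were searched on both strands, and by their letters no match of one can overlap a match of another.

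The promoters of NOP10, which holds several of these sequences, and of NPM1, whose difference was the largest among the members, are shown next. Printed are the 250 bases before the start, with any of the 3 sequences in capitals.
NOP10 (chr15:34343137-34343386, -): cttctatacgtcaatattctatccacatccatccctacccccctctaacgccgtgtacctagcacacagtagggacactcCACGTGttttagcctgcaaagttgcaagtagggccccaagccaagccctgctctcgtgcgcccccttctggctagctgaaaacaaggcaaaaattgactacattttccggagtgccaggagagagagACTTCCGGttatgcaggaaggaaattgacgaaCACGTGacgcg
NPM1, downstream start (chr5:171387599-171387848, +): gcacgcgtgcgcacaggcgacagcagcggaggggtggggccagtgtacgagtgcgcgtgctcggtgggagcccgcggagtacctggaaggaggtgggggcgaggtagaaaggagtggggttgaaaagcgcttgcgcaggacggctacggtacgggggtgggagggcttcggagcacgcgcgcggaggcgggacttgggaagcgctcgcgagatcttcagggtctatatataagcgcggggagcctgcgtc
In the printed bases NOP10 held CACGTG at 2 places and CCGGAAGT once, on the opposite strand. Its whole window also held 1 CCAAT, not within the printed bases. NPM1 held none of the 3 in its printed bases, and its other window, at an upstream start, held 1 CCAAT. DKC1, WDR12 and NOP16, also higher, held 0 of the 3 in their windows. No match says only that these letters are absent from the window.

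Levels are the FPKM that the authors deposited, a count of fragments divided by gene length and by a depth of each library. How the authors set that depth is not stated in any source used here. The libraries held 13370372 to 15615649 reads in genes, recovered from FPKM and gene length. All 11 markers of hepatocytes and hepatoma cells, ALB and AFP among them, were above 1 FPKM in every library, and the leukocyte marker PTPRC and the fibroblast marker COL3A1 were listed at 0 in all 6. ALB was at 831 to 1011 FPKM with saline and 1799 to 2605 with YQSHJD, whereas KRT8 was at 299.6 to 318 and 229.9 to 279.5 FPKM, KRT18 at 318 to 337 and 289 to 305, and TTR at 20.3 to 21.5 and 12.2 to 18.5, lower in every treated library. Summed over the hepatocyte list, the level was 3548 to 3801 FPKM with saline and 4925 to 5778 with YQSHJD. The 7 markers of other cells summed to 5.06 to 5.47 FPKM with saline and 5.26 to 6.21 with YQSHJD, and only VWF among them was above 1 FPKM in all libraries. Fewer cells and less RNA per cell cannot be told apart in such bulk libraries. Saline libraries correlated with each other at 0.989 to 0.991 on the log2 scale, whereas YQSHJD 1 stood apart from YQSHJD 2 and YQSHJD 3, at 0.979 and 0.974, which correlated at 0.989.

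After 3 days with YQSHJD, 14 of the 33 genes that could be tested were higher than with saline and 2 were lower (limma on log2(FPKM + 1), Benjamini-Hochberg adjusted p under 0.05). Of all 10966 genes tested, 23.3% were higher and 18.0% lower, against 42.4% and 6.06% of these 33. The genes were chosen with earlier results of these data known, so these shares are given as a description. The higher genes were NPM1, NCL, GNL3, NOLC1, LYAR, DDX21, NOP58, DKC1, NOP10, WDR43, WDR12, NOP16, POLR1B and POLR1C, and the lower ones were TCOF1 and UBTF. The median log2 difference of the 33 was 0.20, and that of all tested genes was 0.04. Without YQSHJD 1, 16 of the 33 were higher and 2 lower (24.4% and 18.4% of all tested genes), NHP2 and RRP12 being added to the 14. All 33 exceeded 1 FPKM in each of the 6 libraries, so none entered the test through a single group. The same numbers, 14 above and 2 below, did not overlap between the groups (30.7% and 24.6% of all tested genes). NOP2 and RRN3 did not reach that level in 3 libraries and were not tested.

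The size and, for 11 of the 33, the direction of these differences depended on how the libraries were scaled. MT-RNR2, the large ribosomal RNA of mitochondria, took 2.94% to 3.01% of all FPKM with saline and 7.17% to 8.32% with YQSHJD. The mitochondrial genome as a whole took 38.8% to 43.5% and 43.6% to 52.1% of all FPKM. Of the reads in genes, not divided by gene length, it took 13.5% to 15.7% with saline and 17.6% to 22.4% with YQSHJD. The depth that the authors' FPKM imply was 1.03 to 1.05 times the reads in genes with saline and 0.885 to 0.923 times with YQSHJD. It was thus below the reads in genes in every YQSHJD library and above them in every saline library. The counts of higher and lower genes given above rest on this depth. Rescaled to a fixed sum over all genes, as TPM does, the median of all tested genes moved to -0.26 and 1 member (NPM1) was higher and 8 were lower, where 8.07% of all tested genes were higher and 39.9% lower. Rescaled to the sum over genes outside the mitochondrial genome, an alternative chosen after seeing the data, the median of all genes stood at -0.12, and 8 members were higher and 3 lower (12.8% and 29.6% of all tested genes). Median-of-ratios scaling gave 13 members higher and 2 lower (19.8% and 20.9% of all tested genes), voom on recovered reads 14 and 2 (22.1% and 22.5%), and weights for library quality 18 and 2 (31.6% and 24.1%). The members' median stood above that of all genes under TPM rescaling and without the mitochondrial genome, at -0.15 against -0.26 and at 0.01 against -0.12. Summed, the 35 genes made up 0.287% to 0.317% of FPKM outside the mitochondrial genome with saline and 0.322% to 0.346% with YQSHJD, groups that do not overlap. Without NPM1 the shares were 0.259% to 0.280% with saline and 0.275% to 0.284% with YQSHJD, which overlap. Of all FPKM they made up 0.170% to 0.194% and 0.166% to 0.183%, which overlap.

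**Figure D1:**
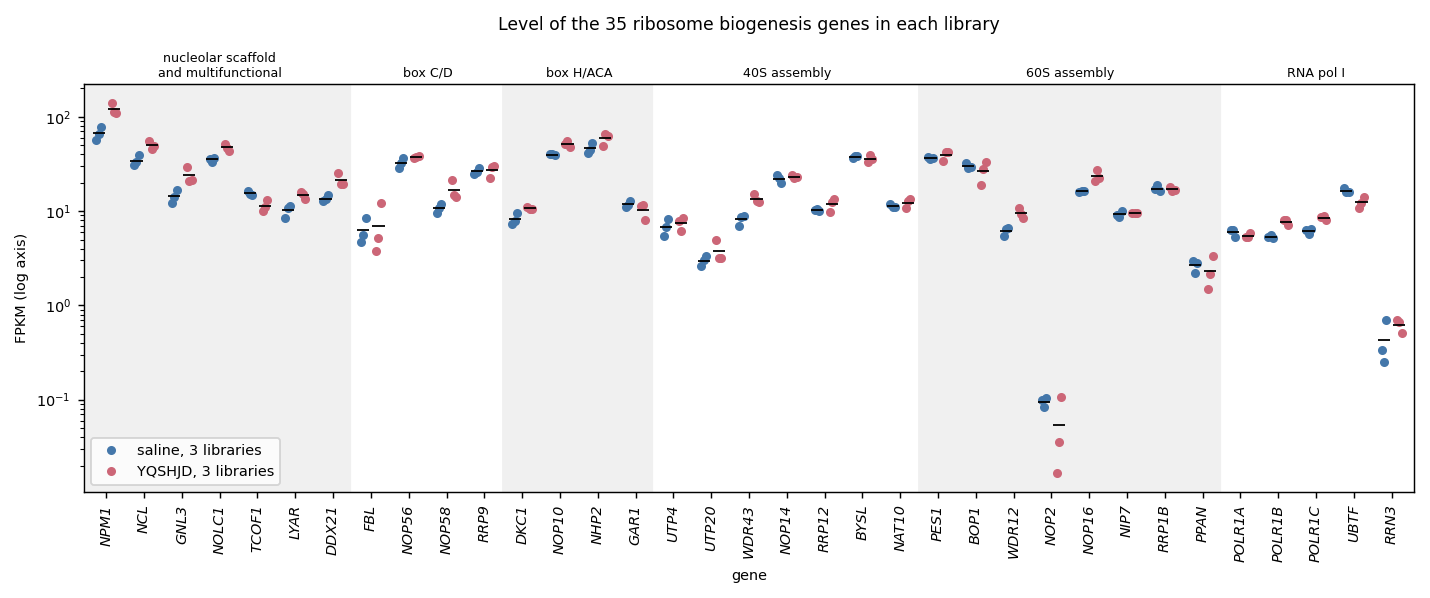
FPKM of each of the 35 genes (log axis) in the 3 saline libraries (blue) and the 3 YQSHJD libraries (red), with group means as black bars and genes ordered by role. NPM1 has the highest mean in both groups, and NOP2 and RRN3 lie below 1 FPKM.

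Among the nucleolar scaffold and multifunctional proteins 6 of 7 were higher and 1 was lower. These were 85.7% and 14.3%, against 23.3% and 18.0% of all tested genes. NPM1 encodes nucleophosmin, a histone-binding chaperone that gives the granular outer layer of the nucleolus its structure and helps export ribosomal subunits. Its level was 57.1, 65.4 and 77.8 FPKM in saline 1 to 3 and 142, 114 and 111 FPKM in YQSHJD 1 to 3. Every YQSHJD library exceeded every saline library, and YQSHJD 1 was the highest. The means were 66.8 ± 10.4 and 122 ± 17.1 FPKM (SD, n = 3 each), a 1.83-fold rise and a log2 difference of 0.86 ± 0.14 (SE, limma adjusted p = 0.00166). The difference exceeded that of 96.2% of all tested genes. It was 0.75 without YQSHJD 1 (adjusted p = 0.00141) and 0.51 under TPM rescaling (adjusted p = 0.0208), where the sign and the call remained. NPM1 (ENSG00000181163, chromosome 5, positions 171387116 to 171411810 in the deposited table) has 49 named pseudogenes there, whose reads came to 5.52% of its own, so reads may be split between them.

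NCL encodes nucleolin, an RNA-binding protein of the inner nucleolus that acts early in precursor processing. It measured 30.7, 33.4 and 39.2 FPKM with saline and 55.5, 46.1 and 48.5 FPKM with YQSHJD, without overlap, and rose 1.45-fold (log2 difference 0.53 ± 0.12 SE, limma adjusted p = 0.0076). GNL3, the nucleolar GTPase nucleostemin, measured 12.1, 14.1 and 16.8 FPKM against 29.7, 21.1 and 21.6 FPKM. It rose 1.68-fold (0.70 ± 0.16, limma adjusted p = 0.00847), and YQSHJD 1 stood well above the other 2 treated libraries. GNL3 overlaps GLT8D1 and PBRM1 on the opposite strand, at 11.6 and 3.78 FPKM on average, and no source used here states the strand setting of the counting, so some of its reads may belong to them.

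DDX21 is an RNA helicase that couples RNA polymerase I transcription to precursor processing. It measured 12.7, 13.4 and 14.7 FPKM with saline and 25.4, 19.5 and 19.2 FPKM with YQSHJD, a 1.57-fold rise (0.61 ± 0.12, limma adjusted p = 0.00531). NOLC1, a phosphoprotein that chaperones snoRNPs between Cajal bodies and nucleoli, measured 35.9, 33.6 and 36.7 FPKM against 51.3, 47.1 and 43.7 FPKM (1.34-fold, 0.41 ± 0.09, adjusted p = 0.00883 by limma). LYAR, a zinc finger protein of the nucleolus, measured 8.52, 10.7 and 11.3 FPKM against 15.95, 15.2 and 13.4 FPKM (1.46-fold, 0.51 ± 0.12, adjusted p = 0.0106 by limma). None of these 3 overlapped between the groups.

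TCOF1 went the other way. It encodes treacle, a scaffold that binds RNA polymerase I and UBTF and is mutated in Treacher Collins syndrome. Its level was 16.5, 15.2 and 14.7 FPKM with saline and 10.1, 11.1 and 13.0 FPKM with YQSHJD, so the lowest saline library stood above the highest treated one. The fall was from 15.4 ± 0.91 to 11.4 ± 1.49 FPKM (log2 difference -0.41 ± 0.11 SE, limma adjusted p = 0.017), and the difference lay above that of only 15.9% of all tested genes. The call was lost without any of 3 libraries: the limma adjusted p was 0.0752 without saline 1, 0.0521 without saline 2 and 0.0571 without YQSHJD 2. Under TPM rescaling the difference was -0.75 (limma adjusted p = 0.00375), where the median of all tested genes was -0.26.

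**Figure D2:**
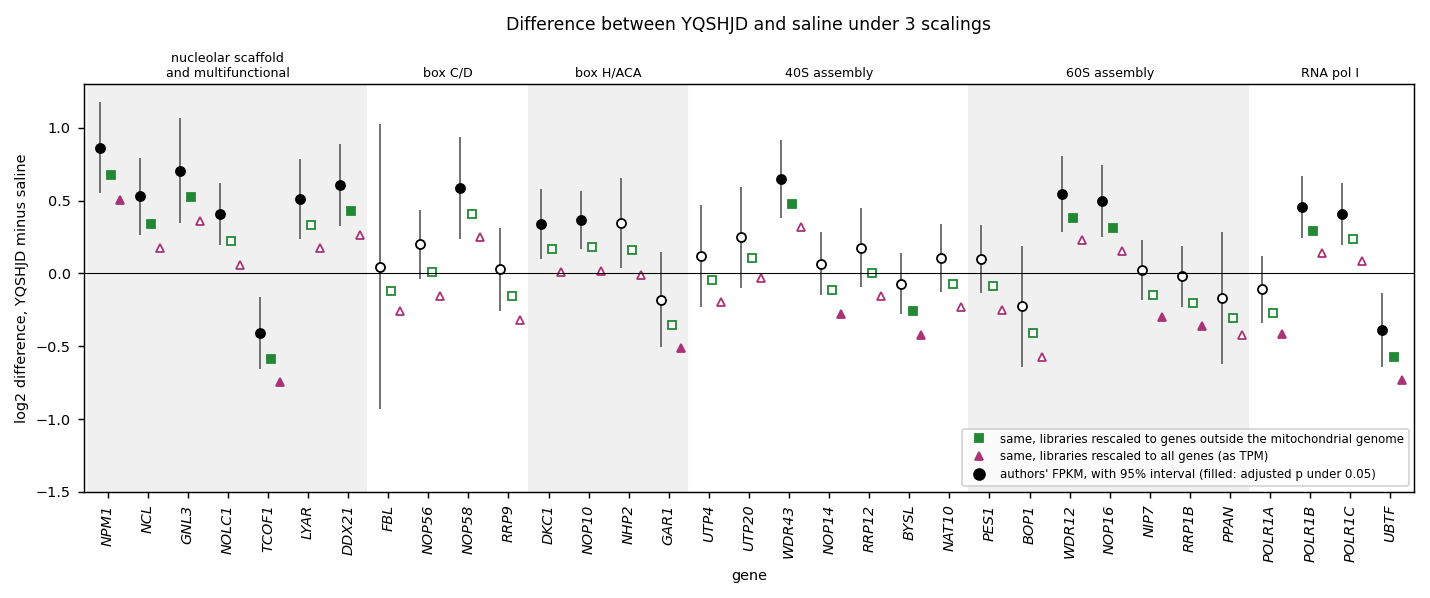
Log2 difference between YQSHJD and saline for the 33 tested genes: authors' FPKM with 95% intervals (black), libraries rescaled to genes outside the mitochondrial genome (green squares) and to all genes as TPM (purple triangles); filled symbols passed an adjusted p of 0.05. NPM1 is filled above 0, and TCOF1 and UBTF below 0, under all 3 scalings.

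Among the box C/D proteins 1 of 4 was higher and 0 lower (25% and 0%, against 23.3% and 18.0% of all tested genes). NOP56 and NOP58 are paired core proteins of the particle and hold the methyltransferase FBL (fibrillarin) in place, and RRP9 is specific to the U3 particle, which guides early cleavage. NOP58 measured 9.60, 10.7 and 11.8 FPKM with saline and 21.2, 14.96 and 14.1 FPKM with YQSHJD (1.57-fold, 0.59 ± 0.15 SE, limma adjusted p = 0.016). YQSHJD 1 alone exceeded 20 FPKM, and without it the difference was 0.41 (adjusted p = 0.00807), while without saline 1 the adjusted p was 0.0661. NOP56 measured 28.7, 32.2 and 36.7 FPKM against 36.4, 37.1 and 38.4 FPKM, with overlap between the groups (0.20, limma adjusted p = 0.156).

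FBL varied more within the groups than between them. Its values were 4.67, 5.53 and 8.51 FPKM with saline and 3.81, 5.14 and 12.1 FPKM with YQSHJD, the lowest and the highest both from treated libraries. It rested on 105 to 361 reads per library, and its log2 difference of 0.05 had a 95% interval from -0.93 to 1.02. RRP9, at 24.8, 26.1 and 29.01 FPKM against 22.5, 29.7 and 29.8 FPKM, had a log2 difference of 0.03 (95% interval -0.26 to 0.31).

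Of the box H/ACA proteins 2 of 4 were higher and 0 lower (50% and 0%, against 23.3% and 18.0% of all tested genes). DKC1, or dyskerin, is the pseudouridine synthase, and NOP10, NHP2 and GAR1 complete the particle, which also forms part of telomerase. NOP10 measured 39.9, 39.97 and 39.4 FPKM with saline and 51.8, 55.4 and 47.8 FPKM with YQSHJD, a 1.299-fold rise (0.37 ± 0.09 SE, limma adjusted p = 0.0106). Its reads were nearly constant, at 958, 969 and 1017 against 1053, 1041 and 1047. Under TPM rescaling the difference was 0.01 (limma adjusted p = 0.914), with median-of-ratios scaling 0.32 (0.0186) and with voom on recovered reads 0.32 (0.0205). Without YQSHJD 2 the adjusted p of NOP10 was 0.0502. DKC1 measured 7.35, 7.92 and 9.52 FPKM against 11.01, 10.5 and 10.5 FPKM (1.29-fold, 0.34 ± 0.11, limma adjusted p = 0.0329), and its call was lost without saline 1 (adjusted p = 0.134), saline 2 (0.113) or YQSHJD 2 (0.078).

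NHP2 measured 41.8, 44.8 and 52.3 FPKM with saline and 48.9, 66.4 and 62.8 FPKM with YQSHJD, where YQSHJD 1 fell inside the range of the controls. Its log2 difference was 0.35 (limma adjusted p = 0.0689) with all libraries and 0.48 without YQSHJD 1 (adjusted p = 0.0039). It overlaps RMND5B on the opposite strand, at 8.31 FPKM on average. GAR1 was at 10.96, 11.5 and 12.9 FPKM against 11.4, 11.7 and 8.02 FPKM. Its log2 difference was -0.18 with a 95% interval from -0.51 to 0.14 (limma adjusted p = 0.338). Under TPM rescaling it was -0.51 (limma adjusted p = 0.0144), where the median of all tested genes was -0.26.

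For the 40S subunit 1 of 7 assembly factors was higher and 0 lower (14.3% and 0%, against 23.3% and 18.0% of all tested genes). WDR43, a component of the small subunit processome that binds the precursor early, measured 7.04, 8.75 and 8.98 FPKM with saline and 15.1, 12.8 and 12.6 FPKM with YQSHJD. The rise was 1.63-fold (0.65 ± 0.12 SE, limma adjusted p = 0.00324), larger than that of 92.2% of all tested genes, and without YQSHJD 1 it was 0.57 (adjusted p = 0.0024). The processome protein UTP4 overlapped between the groups at 5.39, 6.802 and 8.20 FPKM against 7.77, 6.18 and 8.36 FPKM, a log2 difference of 0.12, and shares its span with SNTB2 on the same strand. UTP20, a large scaffold of the same particle, had 2.60, 2.99 and 3.37 FPKM against 4.94, 3.20 and 3.22 FPKM, so its log2 difference of 0.25 came mainly from YQSHJD 1 and was 0.08 without it.

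The other 4 small subunit factors had log2 differences between -0.07 and 0.18, with limma adjusted p of 0.26 to 0.589. NOP14, another processome protein, stood at 22.1 ± 1.99 FPKM with saline and 23.2 ± 0.69 with YQSHJD (SD, n = 3 each). BYSL, or bystin, which acts late on the small subunit, stood at 37.7 ± 0.89 and 35.9 ± 3.14 FPKM. NAT10, which acetylates cytidines in ribosomal RNA, stood at 11.4 ± 0.55 and 12.3 ± 1.35 FPKM. RRP12, an export factor, went from 10.3 ± 0.26 to 11.9 ± 1.86 FPKM (0.18, limma adjusted p = 0.26), and without YQSHJD 1, in which it had 9.78 FPKM, the difference was 0.30 (adjusted p = 0.0169).

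On the 60S side 2 of 7 tested factors were higher and 0 lower (28.6% and 0%, against 23.3% and 18.0% of all tested genes). PES1, BOP1 and WDR12 form the PeBoW complex, which is needed to process the precursor into the large subunit RNAs, and of the 3 only WDR12 passed the test. WDR12 measured 5.47, 6.39 and 6.67 FPKM with saline and 10.7, 9.34 and 8.46 FPKM with YQSHJD (1.54-fold, 0.55 ± 0.11 SE, limma adjusted p = 0.00601). PES1 measured 37.4, 36.0 and 36.3 FPKM against 34.1, 42.0 and 42.1 FPKM, with YQSHJD 1 below all controls (0.10, adjusted p = 0.468 by limma, and 0.20, adjusted p = 0.0531, without YQSHJD 1). BOP1 measured 32.8, 28.97 and 29.6 FPKM against 18.8, 27.8 and 32.9 FPKM, spread wider than the controls on both sides (-0.23, limma adjusted p = 0.344). Without YQSHJD 1 the difference of BOP1 was -0.01.

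NOP16, a nucleolar protein of the large subunit pathway, measured 16.1, 16.3 and 16.5 FPKM with saline and 21.1, 27.2 and 22.3 FPKM with YQSHJD (1.44-fold, 0.50 ± 0.11 SE, limma adjusted p = 0.00732). It lies over HIGD2A, on the opposite strand at 160.0 FPKM on average, so reads of that gene may be counted in it. The other tested factors overlapped between groups. NIP7, an RNA-binding factor, stood at 9.29 ± 0.72 and 9.46 ± 0.03 FPKM, RRP1B at 17.3 ± 1.296 and 17.1 ± 0.78 FPKM, and PPAN, needed for large subunit maturation, at 2.67 ± 0.41 and 2.34 ± 0.95 FPKM (SD, n = 3 each). PPAN shares its span with P2RY11 on the same strand and is uncertain for that reason. NOP2, a methyltransferase of the large subunit RNA and a marker of proliferation, was represented by 1 to 8 reads per library (0.02 to 0.11 FPKM), too few to compare. It shares its span with another protein-coding gene on the same strand, listed at 0 FPKM. Whether the counting of shared reads lowered its level was not tested.

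RNA polymerase I and its factors held 2 higher and 1 lower of 4 tested (50% and 25%, against 23.3% and 18.0% of all tested genes). POLR1A, the largest catalytic subunit, measured 6.36, 6.37 and 5.35 FPKM with saline and 5.29, 5.31 and 5.92 FPKM with YQSHJD (-0.11, 95% interval -0.34 to 0.12). POLR1B, the second catalytic subunit, measured 5.32, 5.54 and 5.17 FPKM against 7.97, 8.12 and 7.04 FPKM, a 1.44-fold rise without overlap (0.46 ± 0.09 SE, limma adjusted p = 0.00551). POLR1C, a subunit shared with RNA polymerase III, measured 6.36, 5.68 and 6.45 FPKM against 8.72, 8.77 and 7.97 FPKM (1.38-fold, 0.41 ± 0.09, adjusted p = 0.00924 by limma). Without saline 2 the adjusted p of POLR1C was 0.0522, and it overlaps YIPF3 (80.3 FPKM on average) and XPO5 on the opposite strand, so its value is uncertain.

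UBTF, the architectural factor of active ribosomal DNA, measured 17.6, 15.9 and 15.97 FPKM with saline and 10.8, 12.3 and 14.1 FPKM with YQSHJD. The groups did not overlap, and the mean fell from 16.5 ± 1.00 to 12.4 ± 1.68 FPKM (log2 difference -0.39 ± 0.11 SE, limma adjusted p = 0.0226). It no longer passed when saline 1 was left out (limma adjusted p = 0.0931), nor without saline 2 (0.0555), saline 3 (0.0536) or YQSHJD 2 (0.0647). Under TPM rescaling the difference was -0.73 (limma adjusted p = 0.00474), where the median of all tested genes was -0.26. RRN3, the initiation factor that carries the polymerase to the promoter, was at 0.33, 0.25 and 0.69 FPKM against 0.69, 0.67 and 0.50 FPKM, from 16 to 47 reads per library, and it has 5 named pseudogenes.

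Ratios between genes of the same library do not depend on scaling, but they are not corrected for the genes' GC content, described below. The pairs were chosen after the values were seen and are given as a description. In the polymerase, POLR1B stood to POLR1A at 0.84 to 0.97 with saline and at 1.19 to 1.53 with YQSHJD, and POLR1C to POLR1A at 0.89 to 1.21 and 1.35 to 1.65. In the box H/ACA particle, GAR1 stood to NOP10 at 0.27 to 0.33 and 0.17 to 0.22, whereas NHP2 to NOP10 was 1.05 to 1.33 and 0.94 to 1.31 and DKC1 to NOP10 was 0.18 to 0.24 and 0.19 to 0.22. The first 3 of these ratios did not overlap between groups and the last 2 did. Single genes did not overlap, in either direction, for 55.3% of all tested genes. Every ratio without overlap had an exact permutation p of 0.1, the smallest possible with 3 against 3 libraries (0.1375 after Benjamini-Hochberg adjustment). NOP58 to NOP56 was 0.32 to 0.33 with saline and 0.37 to 0.58 with YQSHJD, and WDR12 to PES1 was 0.15 to 0.18 and 0.20 to 0.31. After GC correction the log2 differences of WDR12 and PES1 were close, at 0.33 and 0.30, and NOP58 and NOP56 had 0.38 and 0.22. With that correction POLR1B and POLR1A stayed apart, at 0.30 and -0.06, as did GAR1 and NOP10, at -0.27 and 0.31. Lower without overlap were BOP1 to PES1 (0.80 to 0.88 and 0.55 to 0.78), NCL to NPM1 (0.50 to 0.54 and 0.39 to 0.44) and UBTF to POLR1A (2.49 to 2.99 and 2.03 to 2.39). With GC correction the log2 difference of BOP1 changed sign, from -0.23 to 0.14, against 0.30 for PES1. The corrected values were 0.44 for NCL and 0.68 for NPM1, and -0.26 for UBTF and -0.06 for POLR1A. The share of NPM1 in the sum over all 35 genes was 9.58% to 11.7% with saline and 14.3% to 17.95% with YQSHJD.

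**Figure D3:**
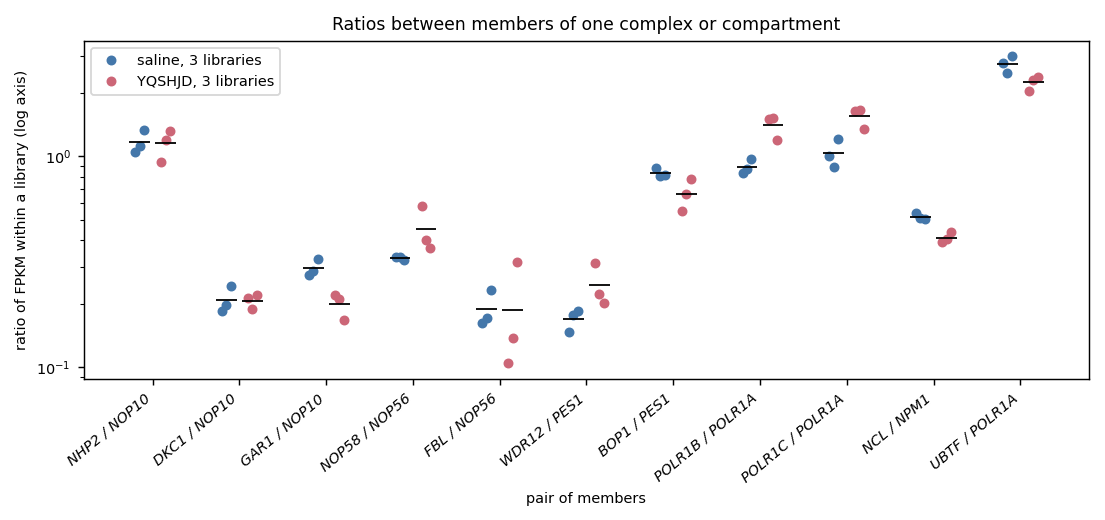
Ratio of the FPKM of 2 genes within each library (log axis) for 11 pairs, with saline libraries in blue, YQSHJD libraries in red and group means as black bars. POLR1B / POLR1A is higher in all YQSHJD libraries (1.19 to 1.53) than in any saline library (0.84 to 0.97), and NHP2 / NOP10 overlaps.

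The differences moved with the GC content of the transcripts, whose part in them was not tested beyond the correction below. Higher members had a median GC content of 44.1% (40.2% to 54.1%) in the longest GENCODE transcript, members not called 51.7% (42.3% to 65.2%), and TCOF1 and UBTF 55.8% and 54.99%. Over the 33 members the log2 difference and GC content had a Pearson r of -0.71 and a Spearman rho of -0.75, given as a description across genes of the same 6 libraries. Over 10811 tested genes with a known GC content the Pearson r was -0.39. The median log2 difference of all genes was 0.22 at 40% to 45% GC and -0.17 at 55% to 60% GC. After a loess trend on GC content was removed from each library, 18 members were higher and 2 lower (25.2% and 19.8% of all genes), and the 14 and the 2 called before were among them. NPM1 then had a difference of 0.68, WDR43 0.44 and UBTF -0.26, and RRP9 (0.29), NHP2 (0.53), RRP12 (0.39) and PES1 (0.30) passed, with limma adjusted p of 0.00224 to 0.0217.

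**Figure D4:**
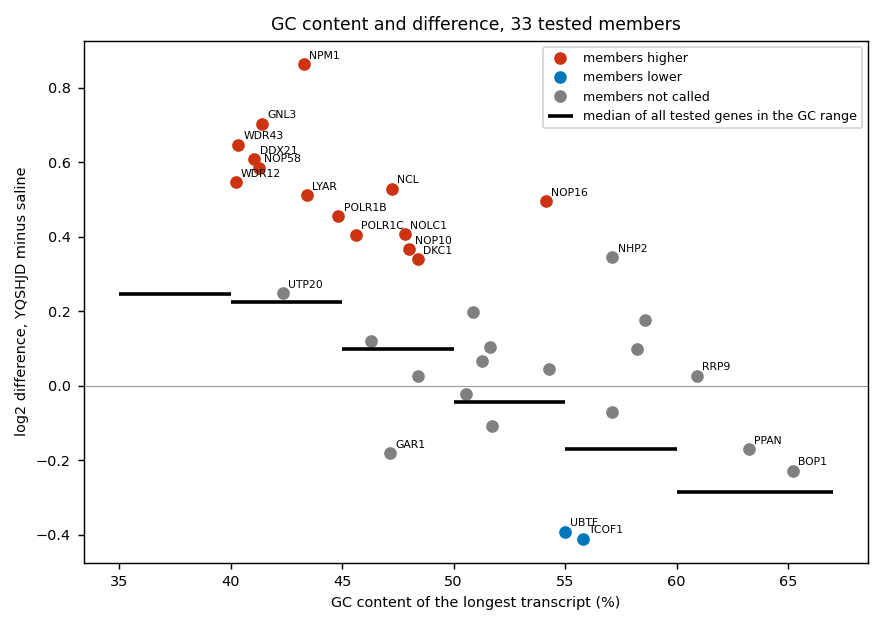
Log2 difference between YQSHJD and saline (authors' FPKM) against the GC content of the longest transcript (%), for the 33 tested members coloured by call, with black bars for the median of all tested genes in each GC range. The 14 higher members (red) lie between 40.2% and 54.1% GC and TCOF1 and UBTF (blue) at 55.8% and 54.99%; the bars fall from 0.25 below 40% to -0.29 above 60%.

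Further genes of the pathway were taken from lists of names. Over all tested genes 23.3% were higher and 18.0% lower, and under TPM rescaling 8.07% and 39.9%. Other 40S assembly factors held 23 higher and 2 lower of 45 tested (51.1% and 4.44%), out of 52 listed. Their median log2 difference was 0.32. DCAF13, a processome protein, went from 2.58 ± 0.43 to 6.41 ± 0.79 FPKM (SD, n = 3 each; 1.05, limma adjusted p = 0.000393), and WDR3, of the same particle, from 2.02 ± 0.28 to 4.14 ± 0.53 FPKM (0.77, adjusted p = 0.0013 by limma). RRP7A and TSR2, factors of the same subunit, fell by 0.80 and 0.32 on the log2 scale (limma adjusted p = 0.00231 and 0.0184). Under TPM rescaling 4 of the 45 were higher and 5 lower (8.89% and 11.1%). DCAF13 (0.76, limma adjusted p = 0.0019) and WDR3 (0.50, 0.00795) were among the higher. Other 60S factors held 16 higher and 3 lower of 48 tested (33.3% and 6.25%), out of 51 listed, with a median of 0.22. After TPM rescaling the counts of that list were 3 higher and 10 lower (6.25% and 20.8%). SBDS, which releases eIF6 from the subunit and is mutated in Shwachman-Diamond syndrome, rose by 0.88 (limma adjusted p = 0.00192), and the GTPase GTPBP4 by 0.65 (0.00162). RRS1, which helps place the 5S RNA, fell by 0.65 (limma adjusted p = 0.0014) and WDR18 by 0.78 (0.0066).

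The polymerase's other subunits and factors held 4 higher and 1 lower of 15 tested, out of 16 listed. These were 26.7% and 6.67%, against 23.3% and 18.0% of all tested genes. POLR1F and POLR1E rose by 0.50 and 0.44 (limma adjusted p = 0.00565 and 0.02). TAF1C, a subunit of the promoter selectivity factor SL1, went from 5.09 ± 0.55 to 2.88 ± 0.68 FPKM (-0.66, limma adjusted p = 0.00685). Under TPM rescaling 0 were higher and 4 lower (0% and 26.7%, against 8.07% and 39.9% of all tested genes). snoRNP assembly factors held 2 higher (COIL, 0.52, and SHQ1, 0.51) and 1 lower (PIH1D1, -0.52) of 9, with limma adjusted p of 0.0111 to 0.012. The shares of that list were 22.2% and 11.1%. The nuclear RNA exosome, which trims the precursor, held 2 higher and 2 lower of 13, or 15.4% each. They were MPHOSPH6 (0.39), DIS3 (0.42), EXOSC6 (-0.46) and EXOSC5 (-0.36), with limma adjusted p of 0.0108 to 0.0283. RNA polymerase III, which makes the 5S RNA, held 3 higher and 1 lower of 11 (27.3% and 9.09%). POLR3A was at 0.50 (limma adjusted p = 0.00288), CRCP at 0.38 (0.0285) and BRF1 at -0.45 (0.0125). Without YQSHJD 1 RNA polymerase III held 2 higher and 2 lower, and the exosome 3 and 2 (24.4% and 18.4% of all tested genes). Under TPM rescaling these last 3 lists held 0 higher and 3 lower each. The lower shares were 33.3%, 23.1% and 27.3% in that order, against 39.9% of all tested genes.

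**Figure D5:**
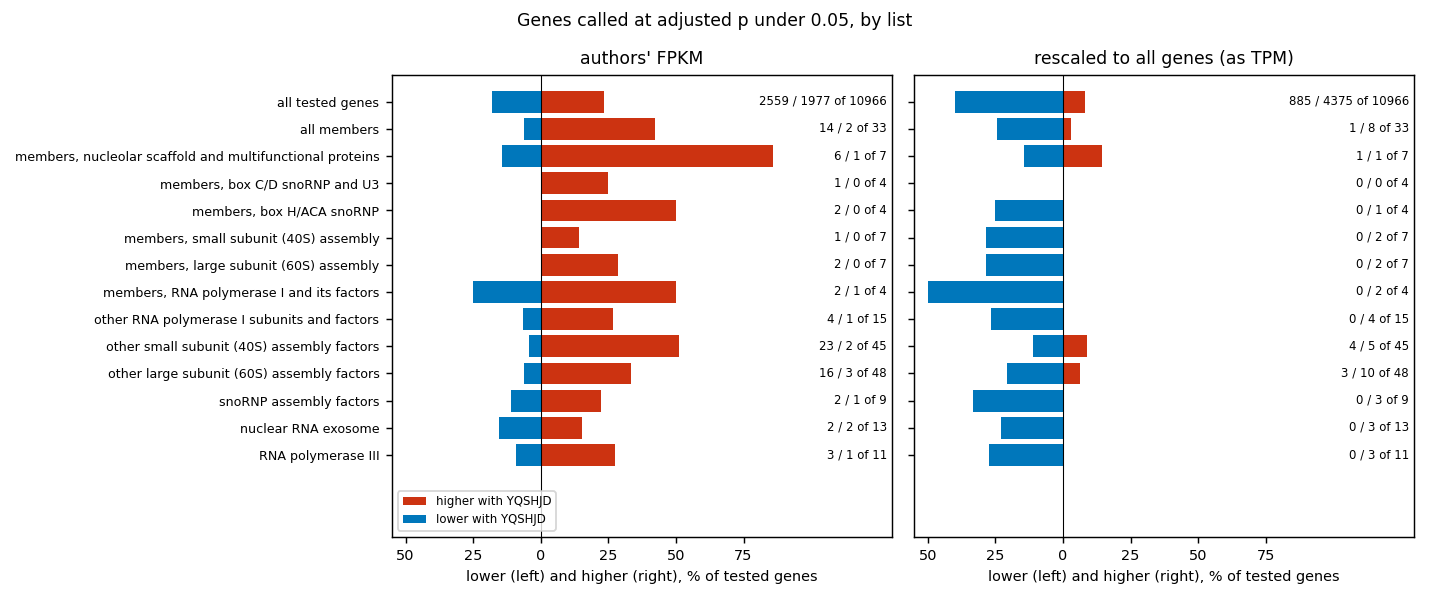
Percentage of tested genes called higher (red, right) and lower (blue, left) with YQSHJD in each list, for the authors' FPKM and after rescaling to all genes as TPM; the figures at the right give higher / lower of tested. The members stand at 14 / 2 of 33 and then at 1 / 8 of 33, and all tested genes at 2559 / 1977 and then at 885 / 4375.

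MYC, the activator named above, stood at 13.4 ± 0.95 FPKM with saline and 13.0 ± 1.88 with YQSHJD (SD, n = 3 each), a log2 difference of -0.05 (limma adjusted p = 0.754), and MAX at 6.58 ± 0.80 and 6.34 ± 0.51 FPKM (-0.04, adjusted p = 0.773 by limma). Under TPM rescaling they had differences of -0.39 (limma adjusted p = 0.0482) and -0.36 (0.0163). The median of all tested genes was then -0.26, and 39.9% of them were lower.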

How the data were processed

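Per the labels' protocols, the 6 libraries of polyadenylated RNA came from Illumina's TruSeq kit. CASAVA 2.19 is named in the submitters' processing notes. The authors deposited FPKM values for 62709 genes with gene lengths and coordinates. No source used here states the aligner, counter, strand setting, build or annotation, and coordinates are printed as deposited. Of its identifiers 58273 were in GENCODE 29, 70.5% with the same start and end. The table also held 6 value columns that match no sample and were not used, and 1 empty line. FPKM times gene length gave whole multiples of 1 step for 100% of values (tolerance 0.01 reads), from which reads were recovered.

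Genes reaching 1 FPKM in 3 or more of the 6 libraries were kept, and log2(FPKM + 1) was compared with limma 3.58.1 in R 4.3.3 (trend and robust prior, two-sided, Benjamini-Hochberg over all genes). Log2 differences include the pseudocount of 1 and understate changes of low genes, and folds are ratios of mean FPKM. All members were named. Of the other lists, the genes named are at most the 2 smallest p in each direction and, of the regulators, MYC and MAX. The rest of that list is not reported here. Members and lists were chosen with earlier results of these data known. GC content was read from each gene's longest GENCODE transcript and was available for 98.6% of those tested (loess span 0.5). Alternatives were TPM and median-of-ratios scaling, other pseudocounts, filters and priors, array weights, voom, GC correction, a replicate block and leaving out each library. The depth of 13370372 to 15615649 reads limits precision for low genes. Figures were drawn with matplotlib 3.10.9.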

Additional observations from a re-analysis of the deposited data

How the results depend on the processing

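Under TPM rescaling 885 of all tested genes were higher and 4375 lower, with 1 member higher and 8 lower. Scaled without the mitochondrial genome, which was chosen after seeing the data, 1399 and 3251 genes were called, with 8 members higher and 3 lower. Without the filter on low values 2957 of 26577 genes were called, 1606 of them higher, or 6.04% higher and 5.08% lower. Of the 35 members 10 were then higher and 0 lower, or 28.6% and 0% (NOP2 -0.06 and RRN3 0.20, limma adjusted p = 0.503 and 0.494). Leaving out 1 library at a time gave 2805 to 4812 called genes of 10966, 1588 to 2675 higher and 1217 to 2188 lower. Of the 33 tested members 12 to 16 were then higher and 0 to 2 lower.

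Libraries with the same replicate number in the labels deviated from their group means with correlations of -0.24, -0.11 and -0.04. Differently numbered libraries were not compared in this way, so these values cannot decide whether the numbers pair the samples. With the replicate number as a block 13 of 33 members were higher and 1 lower, where 2018 and 1689 of all 10966 tested genes were. DKC1 (limma adjusted p = 0.0754) and UBTF (0.0504) were lost.

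Changes of sign were found in members that did not pass the test with all libraries, and the cause was not tested. Under TPM rescaling the log2 differences were FBL -0.26, NOP56 -0.15, RRP9 -0.32, NHP2 -0.0096, UTP4 -0.20, UTP20 -0.031, NOP14 -0.28, RRP12 -0.15, NAT10 -0.23, PES1 -0.25 and NIP7 -0.30. Without the mitochondrial genome they were FBL -0.12, RRP9 -0.16, UTP4 -0.047, NOP14 -0.12, NAT10 -0.071, PES1 -0.088 and NIP7 -0.15. RRP9 and NIP7 were at -0.021 and -0.020 under median-of-ratios scaling and at -0.022 and -0.023 with voom. BYSL was at 0.014 with array weights. GC correction gave BYSL 0.11, BOP1 0.14, NIP7 -0.024 and PPAN 0.15. Leaving out 1 library gave ranges of -0.38 to 0.35 for FBL, -0.020 to 0.079 for NIP7, -0.38 to 0.026 for PPAN, -0.066 to 0.034 for RRP1B, -0.039 to 0.16 for RRP9 and -0.015 to 0.25 for UTP4. NOP2, RRN3 and PPAN had the fewest reads of the members, at most 8, 47 and 135 in a library.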
